A study of Mus musculus with 714 samples.

Results

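The genes of the Wnt signalling pathway were followed in single epithelial cells of the mouse uterus at 5 ages. They were chosen by name, as the rows of the count table called Wnt with a digit, Fzd, Lgr4, Lgr5, Lgr6, Lrp5, Lrp6, Dvl, Axin, Apc, Ctnn, Gsk3, Csnk1, Tcf7, Lef1, Tle, Dkk, Sfrp, Nkd, Rnf43, Znrf3, Rspo, Porcn, Wls, Notum or Apcdd1. Wnt7a was left out of the set and is given once for comparison. The names matched 66 of 12479 gene rows, and the rule uses names alone. By role they are 8 ligands, 1 ligand carrier, 9 receptors, 7 genes of the R-spondin axis, 5 secreted inhibitors, 9 cytoplasmic relay genes, 6 genes of the destruction complex, 7 catenins, 10 nuclear factors and 4 genes that match by name only. No row matched Porcn or Apcdd1, so these genes were not analysed here. The cells came from ICR mice of postnatal day (pnd) 0, 7, 14, 28 and 56, were sorted for the epithelial surface protein CD326 and were read by CEL-seq, which counts the 3′ ends of transcripts. The table holds 714 cells, which their title numbers place in blocks of 88 and 85 cells at pnd0, 88, 87 and 92 at pnd7, 70, 24 and 79 at pnd14, 56 at pnd28 and 45 at pnd56. The labels name no animal, litter or pool.

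Wnt proteins are lipid-bearing secreted ligands that bind Frizzled receptors together with the co-receptors Lrp5 and Lrp6. Without a ligand, a complex of Axin, Apc, Gsk3b and casein kinase 1 alpha marks beta-catenin for breakdown. With a ligand, Dishevelled proteins disable that complex, and beta-catenin reaches the nucleus, where it replaces Tle co-repressors on TCF and LEF factors and turns on targets such as Axin2. Some ligands, Wnt5a and Wnt11 among them, mostly act through Frizzled without beta-catenin. R-spondins bound to Lgr receptors hold back the ubiquitin ligases Rnf43 and Znrf3, which otherwise remove Frizzled from the membrane. In the young mouse uterus Wnt7a is known from the epithelium and Wnt4 and Wnt5a mainly from the stroma beneath it, and the pathway is needed for the glands to form.

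Levels are given as counts per 1000000 (CPM), with the counts of a gene added up over the cells of an age, and with an exact Poisson interval at 95%. Each age is 1 sample, so differences between ages could not be checked in replicates. No test was made from cells, and the intervals hold the error of counting alone. Totals were 582615, 732957, 354047, 96248 and 81894 counts from the youngest to the oldest age, so that 1 count stands for 1.72, 1.36, 2.82, 10.4 and 12.2 CPM. A gene with no count at an age is taken to lie anywhere below a floor of 3 counts over that age, which is 5.15, 4.09, 8.47, 31.2 and 36.6 CPM. A ratio with such an age uses these 3 counts and is called a bound. It is not the end of a 95% interval and leaves out the counting error of the other age. Counting was at the 3′ end and not per length, so levels of different genes are not set against each other. Each of these blocks spans 96 consecutive title numbers and is called a run here. As no run holds more than 1 age, age and run cannot be told apart. Runs 1 and 2 are pnd0, runs 5, 6 and 10 pnd7, runs 3, 4 and 7 pnd14, run 9 pnd28 and run 8 pnd56. Krt18, a keratin of simple epithelia, was counted in 98.8%, 98.9%, 91.9%, 78.6% and 91.1% of cells. Other epithelial genes were counted in fewer cells. Epcam, the gene of CD326, was counted in 50.9%, 44.2%, 34.1%, 28.6% and 53.3%. The cadherin gene Cdh1 was counted in 39.3%, 43.4%, 32.4%, 32.1% and 48.9%, and the keratin gene Krt19 in at most 3.57% at any age. Cells with 5 or more counts over the smooth muscle and stroma lists, called marker-bearing below, made up 1.73%, 4.12%, 26.6%, 28.6% and 6.67% of cells. Of these lists, 5 of 8 muscle and 8 of 9 stroma genes have rows, and at pnd14 Smtn, Lum and Hoxa11 were at 0. The muscle genes held 0.00704%, 0.0181%, 0.281%, 0.130% and 0.0110% of all counts, and the stroma genes 0.00395%, 0.0126%, 0.0805%, 0.338% and 0.292%. The part of these cells in a difference between ages was not tested beyond leaving them out.

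All 66 genes together held 0.544%, 0.538%, 0.467%, 0.446% and 0.368% of the counts of the 5 ages. Of the 66, 23 had at least 100 counts over all cells, 18 had 20 to 99 and 25 had fewer than 20. At least 1 count was seen for 56, 55, 53, 40 and 29 of them, and for 25 genes at every age. The number seen was lower at pnd28 and pnd56, where the count totals were smaller. The beta-catenin gene Ctnnb1 alone took 2405 of the 9494 counts.

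**Figure D1:**
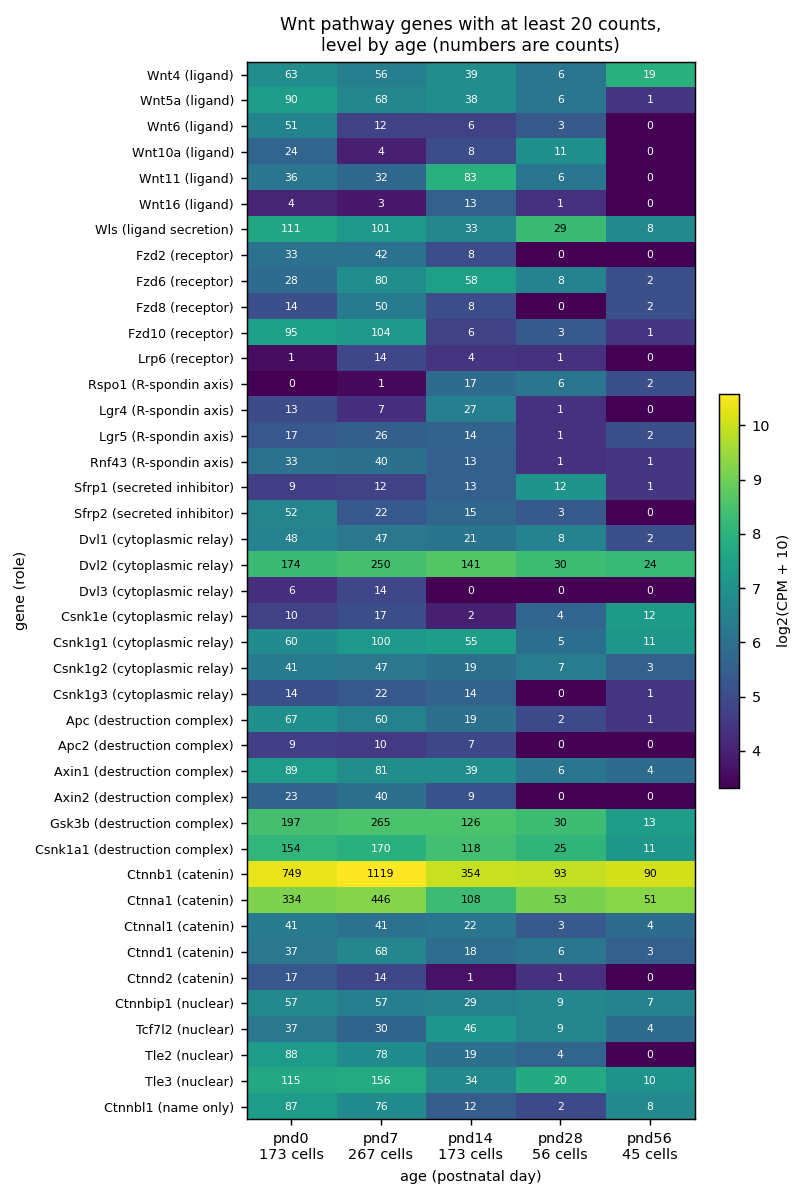
Heat map of the 41 Wnt pathway genes with at least 20 counts, one row per gene with its role, and 1 column per age with its number of cells. Colour is log2(CPM + 10) and the printed number is the count, for example 13, 7, 27, 1 and 0 for Lgr4, while Ctnnb1 has the brightest row.

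Pairs of ages were compared by the ratio of levels, with an exact conditional binomial interval. A gene was measured in a pair where both ages together gave 20 counts or more, and it is called higher or lower in the later age where the ratio is at least 2-fold. The comparison of pnd7 with pnd0 asks what the first week after birth brings. Of 37 measured genes, Fzd6 and Fzd8 were higher, against 4.94% of all measured genes, and Wnt6, Wnt10a, Sfrp2 and Lgr4 were lower, against 7.61% of all genes. The median log2 ratio was −0.19, beside −0.03 for all genes. The Lgr4 interval holds 0, at −1.22 [−2.79, 0.21].

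Between the first and the second week, gland buds begin to form, and pnd14 was set against pnd7. Of 32 measured genes, 4 were higher, against 10.7% of all genes. These were Wnt11, Lgr4, Tcf7l2 and Sfrp1, of which Sfrp1, at 1.17 [−0.08, 2.43], has an interval that holds 0. Lower were 6 genes, against 14.3% of all genes, namely Fzd10, Fzd8, Fzd2, Axin2, Tle3 and Ctnnbl1. The median was −0.01, beside −0.10 for all genes. Both counts, 12.5% higher and 18.8% lower, lie near those of all genes.

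At pnd28 against pnd14, 3 of 24 measured genes were higher, Wls, Sfrp1 and Tle3, beside 11.9% of all genes. Wnt11, Lgr4, Csnk1g1 and Apc were lower, beside 23.2% of all genes. The Apc ratio, −1.37 [−4.52, 0.68], rests on 2 counts at pnd28 and its interval holds 0. The median was −0.36, against −0.23 over all genes. At pnd56 against pnd28 only 8 genes were measured, with Wnt4 higher and Wls lower, beside 14.8% and 16.5% of all genes, and medians of −0.43 for the set and 0.06 for all genes.

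At pnd56 against pnd0, the adult against the newborn, 2 of 30 measured genes were higher, Wnt4 and Csnk1e, beside 10.3% of all genes. Lower were 10 genes, beside 27.4% of all genes: Wnt5a, Wnt6, Fzd10, Rnf43, Sfrp2, Dvl1, Apc, Axin1, Gsk3b and Tle2. The median was −0.77, against −0.34 for all genes. Among the lower genes, Rnf43 and Dvl1 have intervals that hold 0, at −2.21 [−7.56, 0.36] and −1.75 [−4.84, 0.18], and Wnt5a, Fzd10 and Apc rest on 1 count each at pnd56. The comparisons share ages, so their values are not independent of each other.

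**Figure D2:**
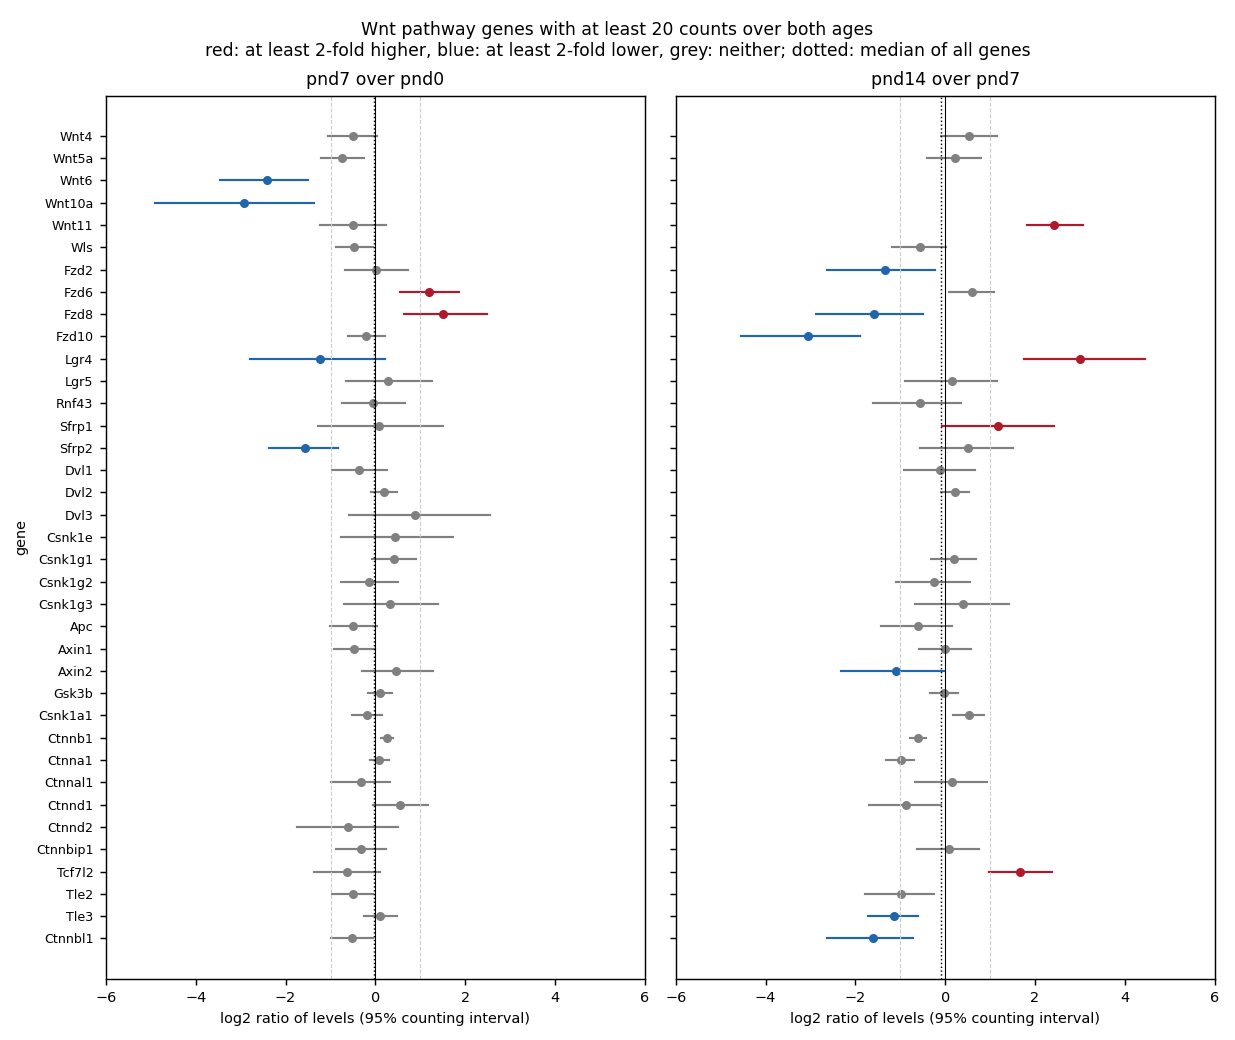
Log2 ratio of levels, with its 95% counting interval, for each gene measured in the pair. The left panel shows pnd7 over pnd0 and the right panel shows pnd14 over pnd7. Red points are at least 2-fold higher, blue points at least 2-fold lower, and the dotted line is the median of all genes. Fzd10 at −3.07 and Lgr4 at 2.997 lie farthest out at pnd14.

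Wnt11, Lgr4 and Fzd10 gave the highest and the lowest ratios of the set at pnd14 against pnd7. Their promoter windows are shown so that the 3 can be read side by side. Each runs 250 bases before to 50 after a gene start in the RefSeq table of build GRCm38.p6, on the plus strand. They are Wnt11 at chr7:98834862-98835161, Lgr4 at chr2:109917397-109917696 and Fzd10 at chr5:128600856-128601155. The letters searched for, on both strands, are those known to be bound by TCF and LEF factors. The first motif is CTTTGAA. The second differs from it by its last base, as CTTTGAT, and reads ATCAAAG when it lies on the other strand. Capitals mark a match.
Wnt11: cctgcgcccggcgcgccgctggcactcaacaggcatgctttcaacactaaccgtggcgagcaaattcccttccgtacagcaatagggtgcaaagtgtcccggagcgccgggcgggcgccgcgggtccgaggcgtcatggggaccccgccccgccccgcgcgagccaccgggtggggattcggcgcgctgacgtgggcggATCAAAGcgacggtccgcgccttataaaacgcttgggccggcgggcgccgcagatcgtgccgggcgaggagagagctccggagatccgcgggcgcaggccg
Lgr4: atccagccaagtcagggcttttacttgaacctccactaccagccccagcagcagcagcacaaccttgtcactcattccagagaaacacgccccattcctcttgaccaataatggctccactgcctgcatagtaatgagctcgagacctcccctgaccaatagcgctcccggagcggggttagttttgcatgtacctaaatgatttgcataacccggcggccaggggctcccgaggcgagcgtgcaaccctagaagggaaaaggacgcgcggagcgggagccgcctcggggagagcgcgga
Fzd10: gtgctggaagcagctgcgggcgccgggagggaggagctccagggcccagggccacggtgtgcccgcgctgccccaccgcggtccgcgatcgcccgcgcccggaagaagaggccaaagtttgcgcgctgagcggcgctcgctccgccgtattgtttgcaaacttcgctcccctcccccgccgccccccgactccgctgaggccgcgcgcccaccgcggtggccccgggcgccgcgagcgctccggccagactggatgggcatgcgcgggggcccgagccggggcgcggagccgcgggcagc
The Wnt11 window holds ATCAAAG, 51 bases before the start, and the other 2 hold no match. Their GC content was 71.3% in Wnt11, 58.3% in Lgr4 and 77.7% in Fzd10. A further Wnt11 window, at chr7:98838595-98838894, holds no match either. Of 68 windows found for 45 of the 66 genes, 2 hold a match (2.94%), those of Wnt11 and Wnt5b, while 2840 of all 32817 windows do (8.65%). The letters are a description of these windows and not a binding site.

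The ligands took different courses, with Wnt6 lower after birth and Wnt11 highest at pnd14. Wnt5a was lowest in the adult, at 1 count, but Wnt6, Wnt10a, Wnt11 and Wnt16 had no count there. The summed ligand level was 461.7, 238.8, 531.003, 342.9 and 244.2 CPM over the 5 ages. The sum was lower at pnd7 than at pnd0, with a log2 ratio of −0.95 [−1.23, −0.67], and higher at pnd14 than at pnd7, with 1.15 [0.85, 1.46].

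Wnt11 stood at 61.8, 43.7, 234.4, 62.3 and 0 CPM from 36, 32, 83, 6 and 0 counts at the 5 ages. The 3 pnd14 runs had 133.2, 244.9 and 319.1 CPM and lay above every other run, the highest of which, at pnd0, had 64.3 CPM. At pnd14 it was 5.37-fold higher than at pnd7, a log2 ratio of 2.42 [1.82, 3.06], and it was counted in 17.9% of pnd14 cells against 8.24% of pnd7 cells. With each cell thinned to 1500 counts, which leaves out 9, 13, 60, 23 and 20 cells of the 5 ages, these shares were 15.9% and 5.12%. Without the marker-bearing cells the ratio was 2.77. Wnt11 was lower again at pnd28, with −1.91 [−3.40, −0.73] against pnd14, and had no count at pnd56. That ratio was −1.05 when cells were thinned to 850 counts.

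Wnt6 stood at 87.5, 16.4, 16.9, 31.2 and 0 CPM from 51, 12, 6, 3 and 0 counts. The pnd0 runs had 54.2 and 121.9 CPM, and the pnd7 runs lay between 9.74 and 24.6 CPM. The ratio of pnd7 to pnd0 was −2.42 [−3.46, −1.49]. It was −1.73 with run 2 left out and −4.43 after thinning to 850 counts. At pnd56 no count was seen. At the floor of 3 counts the level was 2.39-fold lower than at pnd0. This bound falls short of 2-fold without run 2, at −0.56, and at 850 counts, at −0.28. Without the cell of the largest count it falls short too, at −0.99. After thinning to 1500 counts, the floor at pnd56 lay above the pnd0 level, so no lower level could be shown. Wnt10a, another ligand, had 24, 4, 8, 11 and 0 counts, or 41.2, 5.46, 22.6, 114.3 and 0 CPM. It was lower at pnd7 than at pnd0, with −2.92 [−4.90, −1.37], and −3.87 without the marker-bearing cells. Of the 11 counts at pnd28, 6 lay in 1 cell.

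Wnt5a stood at 154.5, 92.8, 107.3, 62.3 and 12.2 CPM from 90, 68, 38, 6 and 1 counts. The level was highest in the newborn, where both runs had 152.3 and 156.7 CPM. The ratio of pnd7 to pnd0 was −0.74 [−1.21, −0.27], short of 2-fold, and that of pnd56 to pnd0 was −3.66 [−8.98, −1.15] with 1 count at pnd56. Thinning to 850 counts leaves no count at pnd56 and a bound short of 2-fold. Of the pnd14 counts, 12 of 38 lay in marker-bearing cells.

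Wnt4 stood at 108.1, 76.4, 110.2, 62.3 and 232.01 CPM from 63, 56, 39, 6 and 19 counts. It was higher at pnd56 than at pnd28, 1.90 [0.51, 3.51], and than at pnd0, 1.10 [0.28, 1.86], but 9 of the 19 pnd56 counts came from 1 cell and 8 of 45 cells had any. Without that cell the ratio of pnd56 to pnd28 was 0.996. Without the marker-bearing cells, which held 5 of the 6 pnd28 counts, it was 3.97. Thinned to 1500 counts, which keeps 25 pnd56 cells, both ratios changed sign, to −0.60 and −1.37, and at 850 counts, which keeps every pnd56 cell, they were 3.02 and 1.84. Without run 1 the ratio of pnd56 to pnd0 was 0.70. The adult Wnt4 level therefore rests on few cells.

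Wnt16 had 4, 3, 13, 1 and 0 counts, with 7 of the 13 at pnd14 in marker-bearing cells. Wnt5b and Wnt9a had 1 count each. For comparison, Wnt7a stood at 272.9, 289.2, 76.3, 176.6 and 73.3 CPM, with a log2 ratio of −1.92 [−2.56, −1.34] for pnd14 over pnd7. Wnt7a was thus lower at the age at which Wnt11 was highest.

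Wls, which carries Wnt proteins out of the cell, stood at 190.5, 137.8, 93.2, 301.3 and 97.7 CPM. It was higher at pnd28 than at pnd14, with 1.69 [0.92, 2.46], and lower at pnd56 than at pnd28, with −1.62 [−2.96, −0.46]. Its share of cells was 28.6% at pnd28 against 11.6% at pnd14, and 33.3% against 7.96% after thinning to 1500 counts. The ratio of pnd28 to pnd14 lay between 1.58 and 1.95 under every alternative run. That of pnd56 to pnd28 was −2.38 at 850 counts.

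**Figure D3:**
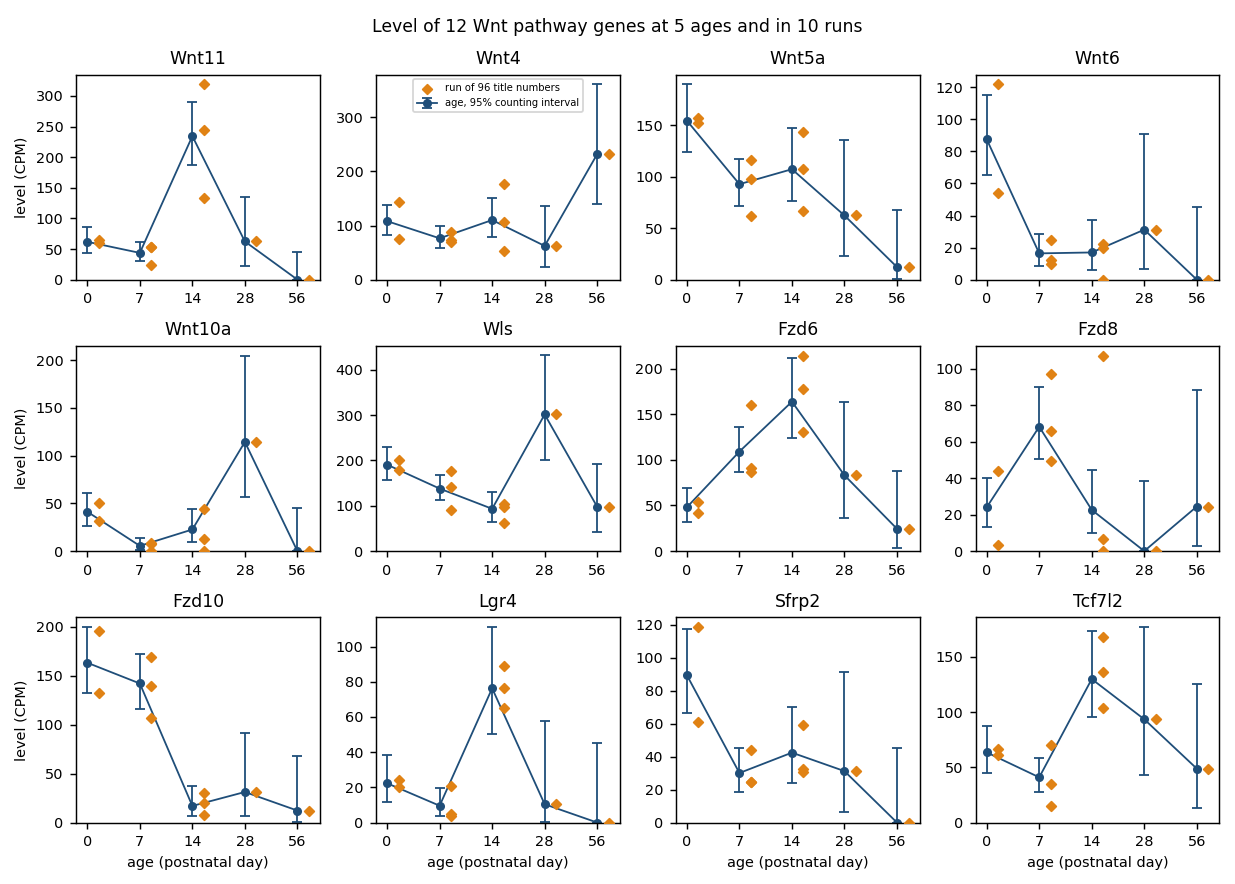
Level in CPM of 12 Wnt pathway genes at the 5 ages, with blue circles and bars for each age and its 95% counting interval, and orange diamonds for the runs of that age. The ages are evenly spaced on the axis and each panel has its own scale from 0. The 3 pnd14 runs of Wnt11 and of Lgr4 lie above all other runs, and those of Fzd10 lie below all pnd0 and pnd7 runs.

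The Frizzled receptors differed among themselves: Fzd10 was present at pnd0 and pnd7 and scarce afterwards, Fzd6 was higher at pnd7 than at pnd0, and Fzd2 and Fzd8 were lower at pnd14 than at pnd7. The summed receptor level was 317.5, 406.6, 248.6, 145.5 and 61.1 CPM at the 5 ages. It was higher at pnd7 than at pnd0, with 0.36 [0.09, 0.63], and lower at pnd14 than at pnd7, with −0.71 [−1.07, −0.36].

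Fzd10 stood at 163.1, 141.9, 16.9, 31.2 and 12.2 CPM, with 95 counts at pnd0 and 6, 3 and 1 counts at pnd14, pnd28 and pnd56. The pnd0 runs had 132.03 and 194.97 CPM and the pnd7 runs 107.1, 139.6 and 168.95 CPM, while the runs of the later ages lay between 7.40 and 31.2 CPM without overlap. The level at pnd14 was 8.37-fold lower than at pnd7, a log2 ratio of −3.07 [−4.54, −1.90], between −2.63 and −3.59 under the alternatives. It was counted in 2.89% of pnd14 cells against 25.5% of pnd7 cells, and after thinning to 1500 counts in none of the pnd14 cells that were left against 16.5% of pnd7 cells. At pnd56 against pnd0 the ratio was −3.74 [−9.06, −1.23] from 1 count, and a bound short of 2-fold at 850 counts.

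Fzd6 stood at 48.1, 109.1, 163.8, 83.1 and 24.4 CPM from 28, 80, 58, 8 and 2 counts. It was higher at pnd7 than at pnd0, with 1.18 [0.55, 1.86], although run 6 stood at 160.7 CPM and runs 5 and 10 at 86.2 and 91.5 CPM, and without run 6 the ratio was 0.89. Both pnd0 runs, at 41.8 and 54.2 CPM, lay below every pnd7 run. Its highest level was that of pnd14, where 23.1% of cells had a count.

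Fzd8 had 14, 50, 8, 0 and 2 counts, or 24.03, 68.2, 22.6, 0 and 24.4 CPM. At pnd0, 13 of the 14 counts were in run 1 and 1 in run 2, and at pnd14, 7 of 8 were in run 4. The ratio of pnd7 to pnd0, 1.51 [0.63, 2.48], was therefore 4.29 without run 1 and 0.63 without run 2. That of pnd14 to pnd7, −1.59 [−2.88, −0.51], was −4.30 without run 4, −0.90 without run 3 and −0.97 without run 7. Fzd2 had 33, 42, 8, 0 and 0 counts, and its ratio of pnd14 to pnd7 was −1.34 [−2.64, −0.23].

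Among the other receptors, the co-receptors Lrp6 and Lrp5 had 1, 14, 4, 1 and 0 and 6, 4, 0, 0 and 0 counts. All 4 pnd14 counts of Lrp6 came from 1 marker-bearing cell. Fzd5 had 4, 1, 4, 0 and 0 counts, Fzd7 3, 3, 0, 2 and 0, and Fzd4 1 count at pnd0. At these counts no course over age can be read.

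In the R-spondin axis, Lgr4 was higher at pnd14 than at pnd7, Lgr5 was called in no pair in which it was measured, and Rnf43 was called at pnd56 over pnd0 alone, with an interval that holds 0. Znrf3 was measured in no pair. Lgr4, an R-spondin receptor, had 13, 7, 27, 1 and 0 counts, or 22.3, 9.55, 76.3, 10.4 and 0 CPM. The pnd14 runs, at 65.1, 76.5 and 88.8 CPM, lay above all other runs, which reached at most 24.4 CPM. It was 7.99-fold higher at pnd14 than at pnd7, a log2 ratio of 2.997 [1.76, 4.44], with 9 of the 27 counts in 1 cell. Without run 5 the ratio was 4.22, and at 850 counts it was 2.07. Against pnd14, pnd28 had 1 count and a ratio of −2.88 [−8.23, −0.27], which was −1.81 at 1500 counts and a bound of −1.08 without the marker-bearing cell that held it.

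Lgr5, the R-spondin receptor known as a stem cell marker, had 17, 26, 14, 1 and 2 counts, or 29.2, 35.5, 39.5, 10.4 and 24.4 CPM, with ratios of 0.28 [−0.66, 1.26] at pnd7 over pnd0 and 0.16 [−0.89, 1.15] at pnd14 over pnd7. Both intervals hold 0 and reach past 2-fold higher. Rnf43 had 33, 40, 13, 1 and 1 counts, with −0.57 [−1.60, 0.36] for pnd14 over pnd7, and Znrf3 had 6, 5, 6, 0 and 0. Lgr6 had 2 counts, both at pnd14.

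The R-spondin ligands were counted mostly at pnd14 and later, and many of their counts lay in marker-bearing cells. Rspo1 had 0, 1, 17, 6 and 2 counts, of which 9 of the 17 at pnd14, 6 of 6 at pnd28 and 2 of 2 at pnd56 were in marker-bearing cells. Rspo3 had 0, 0, 7, 0 and 0 counts, 4 of the 7 in marker-bearing cells. With 18 counts over pnd14 and pnd7, Rspo1 fell short of the count minimum for a call.

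Of the secreted inhibitors, Sfrp2 was lower after birth and Sfrp1 was highest at pnd28. Sfrp2, which binds Wnt proteins outside the cell, had 52, 22, 15, 3 and 0 counts, or 89.3, 30.02, 42.4, 31.2 and 0 CPM, with 60.9 and 118.4 CPM in the pnd0 runs and 24.6 to 43.8 CPM in the pnd7 runs. The ratio of pnd7 to pnd0 was −1.57 [−2.36, −0.83]. At pnd14, 13 of its 15 counts and at pnd28 all 3 were in marker-bearing cells, while at pnd0 1 of 52 and at pnd7 1 of 22 were. No count was seen at pnd56. At the floor of 3 counts the level was 2.44-fold lower than at pnd0. This bound is short of 2-fold without run 2 and after either thinning.

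Sfrp1, of the same family, had 9, 12, 13, 12 and 1 counts, or 15.4, 16.4, 36.7, 124.7 and 12.2 CPM. It was higher at pnd28 than at pnd14, with 1.76 [0.50, 3.01], in 9 of 56 cells at pnd28 against 8 cells at pnd14. Of the 13 pnd14 counts 11 were in run 7, and leaving out run 3 gave a ratio of 1.07, run 7 a ratio of 3.64. The ratio was 2.51 at 1500 counts and 1.01 at 850 counts. Marker-bearing cells held 1 of the 12 pnd28 counts. Sfrp4 had 0, 0, 0, 4 and 3 counts, 5 of the 7 in marker-bearing cells, and the 6 pnd28 counts of Dkk2, which blocks Lrp6, came from 1 marker-bearing cell. Notum, which strips the lipid from Wnt proteins, had 3, 1, 0, 0 and 0 counts.

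No cytoplasmic relay gene was called at pnd7 over pnd0 or at pnd14 over pnd7. Dvl1, a Dishevelled gene, stood at 82.4, 64.1, 59.3, 83.1 and 24.4 CPM from 48, 47, 21, 8 and 2 counts, and Dvl3 had 6, 14, 0, 0 and 0 counts. The row of Dvl2 stood at 299, 341, 398.3, 312 and 293 CPM. Of the cells with a count of Dvl2 or of Acadvl, an overlapping gene on the opposite strand, 96.6% had both, so the row of Dvl2 cannot be read apart from Acadvl. Of the genes with at least 20 counts, no other had a partner row found in more than 83.97% of the cells with either, a share that abundant Ctnnb1 reached with Ppia.

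Casein kinase 1 epsilon, Csnk1e, which acts on Dishevelled, had 10, 17, 2, 4 and 12 counts, or 17.2, 23.2, 5.65, 41.6 and 146.5 CPM. It was 8.54-fold higher at pnd56 than at pnd0, a log2 ratio of 3.09 [1.76, 4.46], with counts in 8 of 45 pnd56 cells and at most 2 in any of them. Without run 1 the ratio was 3.81. Csnk1g1, one of the membrane-bound casein kinases that act on Lrp6, stood at 102.98, 136.4, 155.3, 51.9 and 134.3 CPM from 60, 100, 55, 5 and 11 counts, and was lower at pnd28 than at pnd14 with −1.58 [−3.26, −0.27], or −2.75 at 1500 counts. Csnk1g2, of the same group, stood at 70.4, 64.1, 53.7, 72.7 and 36.6 CPM from 41, 47, 19, 7 and 3 counts, and was called in no pair. Csnk1g3 had 14, 22, 14, 0 and 1 counts, Csnk1d 1, 13, 3, 1 and 0, and Nkd1, a Dishevelled-binding inhibitor, 1, 2, 3, 1 and 0.

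In the destruction complex Axin2 was the 1 gene called at pnd7 over pnd0 or at pnd14 over pnd7, and the summed level was lower in the adult. The sum stood at 925.1, 854, 898.2, 654.6 and 354 CPM, with log2 ratios of −0.12 [−0.28, 0.05] at pnd7 against pnd0, of 0.07 [−0.13, 0.27] at pnd14 against pnd7 and of −1.39 [−1.98, −0.85] at pnd56 against pnd0.

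Gsk3b, the kinase of the complex, stood at 338, 362, 356, 312 and 158.7 CPM, and its ratio of pnd14 to pnd7 was −0.02 [−0.34, 0.29]. At pnd56 against pnd0 it was −1.09 [−2.03, −0.28]. This was short of 2-fold, at −0.89, without run 2, at −0.91 with median-of-ratios scaling and at −0.81 with 1500 counts per cell. Csnk1a1, which primes beta-catenin for Gsk3b, stood at 264.3, 231.9, 333, 259.7 and 134.3 CPM and was called in no pair.

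The scaffold gene Axin1 stood at 152.8, 110.5, 110.2, 62.3 and 48.8 CPM from 89, 81, 39, 6 and 4 counts. It was lower at pnd56 than at pnd0, with −1.65 [−3.55, −0.24], or −2.90 at 1500 counts. Apc, the tumour suppressor of the complex, stood at 114.999, 81.9, 53.7, 20.8 and 12.2 CPM from 67, 60, 19, 2 and 1 counts. Its ratio of pnd56 to pnd0 was −3.24 [−8.56, −0.71] from 1 count, −2.14 at 850 counts and a bound of −0.09 at 1500 counts, where none is left. Apc2 had 9, 10, 7, 0 and 0 counts.

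Axin2, the scaffold that is also a target of the pathway, had 23, 40, 9, 0 and 0 counts, or 39.5, 54.6, 25.4, 0 and 0 CPM. The ratio of pnd14 to pnd7 was −1.10 [−2.33, −0.04], just past 2-fold. It was between −0.77 and −0.98 without run 3, 4 or 5 and −1.87 without run 7, −0.998 with median-of-ratios scaling, −0.96 without the cell of the largest count, and 0.24 at 850 counts, where 6 counts stood against 8. At 1500 counts, 1 count stood against 20 and the ratio was −3.15. Whether Axin2 was lower at pnd14 is therefore not settled by these counts.

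Together, the 8 genes that the pathway itself is known to switch on (Axin2, Lgr5, Rnf43, Znrf3, Nkd1, Notum, Lef1 and Tcf7) stood at 144.2, 165.1, 127.1, 31.2 and 36.6 CPM. Their sum did not differ beyond its interval at pnd7 over pnd0, 0.20 [−0.22, 0.61], or at pnd14 over pnd7, −0.38 [−0.90, 0.13]. It was lower at pnd28 than at pnd14, with −2.03 [−4.36, −0.39] from 3 counts at pnd28. It was also lower at pnd56 than at pnd0, with −1.98 [−4.28, −0.38] from 3 counts at pnd56.

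Of the catenins, Ctnnb1 and Ctnna1 were lower at pnd14 than at pnd7 by less than or about 2-fold, and neither was called in any pair. Ctnnb1, the gene of beta-catenin, which also holds cadherin junctions together, stood at 1286, 1527, 999.9, 966 and 1099 CPM from 749, 1119, 354, 93 and 90 counts. The ratio of pnd14 to pnd7 was −0.61 [−0.79, −0.44], and the pnd14 runs, at 949.1 to 1028 CPM, lay below the pnd7 runs, at 1489 to 1578 CPM. It was counted in 70.8% of pnd14 cells against 87.01% of pnd7 cells at 1500 counts per cell.

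Ctnna1, the gene of alpha-catenin, which ties the junction to actin, stood at 573.3, 608.5, 305, 550.7 and 622.8 CPM. Its ratio of pnd14 to pnd7 was −0.996 [−1.31, −0.69], at the edge of 2-fold, and the pnd14 runs (273.5 to 337 CPM) did not overlap those of any other age. At pnd28 it was above pnd14 again, with 0.85 [0.35, 1.34], which is short of 2-fold. The other catenins with 100 or more counts were Ctnnd1, the gene of p120-catenin, which steadies cadherins, at 63.5, 92.8, 50.8, 62.3 and 36.6 CPM from 37, 68, 18, 6 and 3 counts, and Ctnnal1, an alpha-catenin relative, at 70.4, 55.9, 62.1, 31.2 and 48.8 CPM from 41, 41, 22, 3 and 4 counts. Neither was called. Ctnnd2 had 17, 14, 1, 1 and 0 counts, and Ctnna2 and Ctnna3 had 1 count each.

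In the nucleus, Tcf7l2 was higher and Tle3 lower at pnd14 than at pnd7. Tcf7l2, a TCF factor that carries beta-catenin on DNA, stood at 63.5, 40.9, 129.9, 93.5 and 48.8 CPM from 37, 30, 46, 9 and 4 counts. The pnd14 runs had 103.6, 136.8 and 168.4 CPM and the pnd7 runs 14.6, 35.2 and 69.8 CPM, without overlap. The ratio was 1.67 [0.97, 2.38]. It was 2.29 without run 5, 0.80 at 850 counts and 1.18 without the marker-bearing cells, which held 22 of the 46 pnd14 counts. The other factors were scarce, with 1, 4, 0, 0 and 0 counts of Lef1, 0, 3, 0, 0 and 0 of Tcf7 and 0, 5, 0, 0 and 0 of Tcf7l1.

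The co-repressor gene Tle3 stood at 197.4, 212.8, 96.03, 207.8 and 122.1 CPM. It was lower at pnd14 than at pnd7, with −1.15 [−1.73, −0.61], −0.89 without run 7 and −0.45 at 850 counts. It was higher at pnd28 than at pnd14, with 1.11 [0.24, 1.95], but 8 of the 20 pnd28 counts came from 1 cell. With that cell left out the ratio was 0.40. It was 0.86 without run 7 and −0.22 at 1500 counts. Tle2, of the same family, stood at 151.04, 106.4, 53.7, 41.6 and 0 CPM from 88, 78, 19, 4 and 0 counts. With no count at pnd56 it was at least 4.12-fold lower than at pnd0, a bound of −2.04 that moved to −0.79 at 1500 and −1.23 at 850 counts.

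Ctnnbip1, whose protein keeps beta-catenin from TCF factors, stood at 97.8, 77.8, 81.9, 93.5 and 85.5 CPM from 57, 57, 29, 9 and 7 counts and was called in no pair. All 9 pnd28 counts came from 1 cell. Tle6 had 7, 10, 1, 0 and 0 counts, Tle1 1, 1, 2, 0 and 0, and Tle4 5 counts, all at pnd14 and 4 of them in marker-bearing cells.

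Some rows match by name and are not known as parts of the pathway. Ctnnbl1, a nuclear protein named for its likeness to beta-catenin, stood at 149.3, 103.7, 33.9, 20.8 and 97.7 CPM from 87, 76, 12, 2 and 8 counts. It was lower at pnd14 than at pnd7, with −1.61 [−2.63, −0.73], −2.22 at 1500 counts and −2.41 without the marker-bearing cells. Dkkl1 had 7 counts, Notumos 4 and Apc-ps1 2. Notumos is antisense to Notum, and Apc-ps1 is a pseudogene that lies within Tmem165.

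Within pnd14, the marker-bearing cells carried more Sfrp2 and Tcf7l2 and less Wnt11 and Lgr4 than the other cells of that age. The class is a range of a summed count and not a cell type, and 10 cells lay within 1 count of its limit. It held 46 cells with a median of 1799.5 counts, against a median of 1782 in the other cells. Of these cells 17, 4 and 25 were in runs 3, 4 and 7. Krt18 was counted in 76.1% of the marker-bearing cells against 97.6% of the others, and Epcam, the gene of CD326, in 28.3% against 36.2%.

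Sfrp2 had 13 counts in the marker-bearing cells against 2 in the others, a log2 ratio of 4.04 [1.89, 7.23], below the count minimum for a call. Of 18 measured genes, Tcf7l2 was higher, beside 11.6% of all genes, at 218.9 against 94.7 CPM and 1.21 [0.31, 2.11]. Wnt11, Lgr4, Csnk1g1 and Axin1 were lower, beside 13.3% of all genes. Wnt11 stood at 59.7 against 304 CPM, −2.35 [−3.84, −1.16], and Lgr4 at 19.9 against 98.6 CPM, −2.31 [−5.43, −0.31]. Most pnd14 counts of Wnt11 and Lgr4 thus lay outside the marker-bearing cells, and the Tcf7l2 counts were shared between both classes. For Lgr4 this rests on 2 against 25 counts, and 18 pnd14 counts remain without the cell of the largest count.

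**Figure D4:**
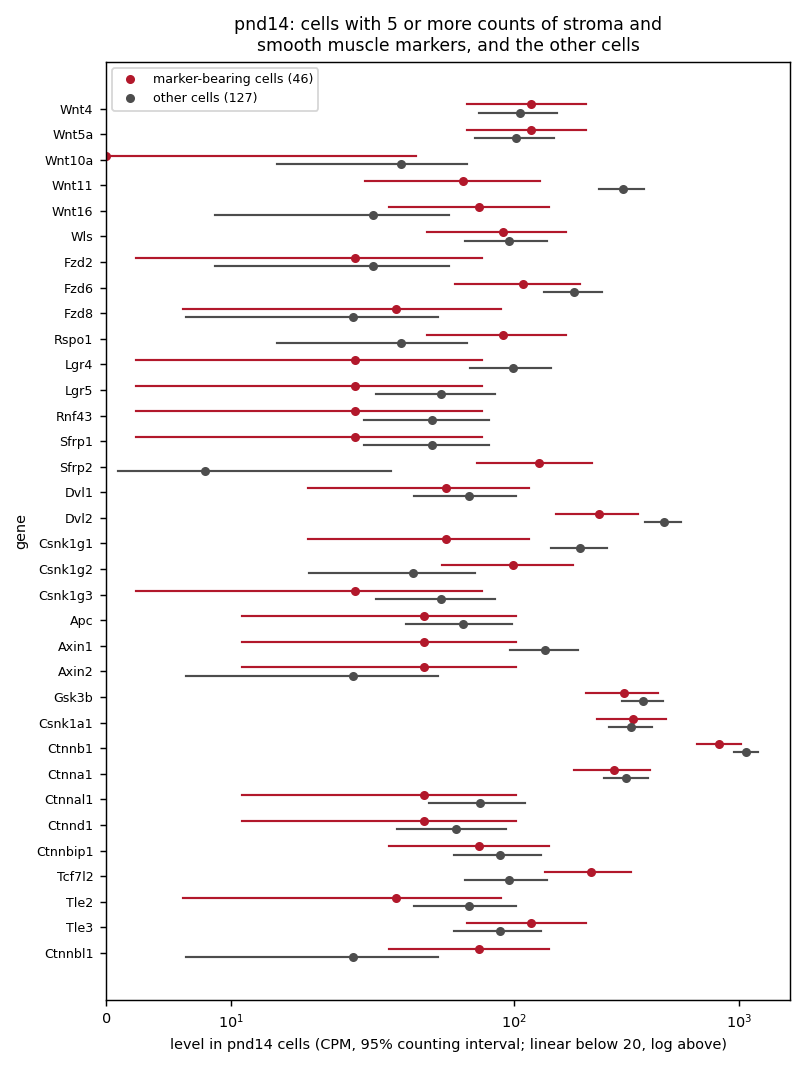
Level in CPM of Wnt pathway genes in the 46 marker-bearing cells (red) and the other cells (grey) of pnd14, with 95% counting intervals on an axis that is linear below 20 CPM and logarithmic above. Sfrp2 and Tcf7l2 lie to the right in red, and Wnt11 and Lgr4 to the right in grey.

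At pnd7, the cells with a count of Aldh1a1, whose enzyme makes retinoic acid, carried more receptor counts than the other cells of that age. They were 63 cells with a median of 2608 counts, against a median of 2449 in the others, and 20, 12 and 31 of them were in runs 5, 6 and 10. The summed receptor level was 558.1 against 354.9 CPM, 0.65 [0.30, 1.004]. Of 30 measured genes 4 were higher, beside 5.57% of all genes: Wnt11 at 1.55 [0.46, 2.65], Fzd2 at 1.14 [0.17, 2.08], Dvl1 at 1.12 [0.21, 2.01] and Tle3 at 1.03 [0.55, 1.505]. Sfrp2 and Csnk1g3 were lower, beside 9.74% of all genes, each with 3 counts against 19 and an interval that holds 0. Gsk3b stood at 246.8 against 400.7 CPM, −0.70 [−1.19, −0.23]. The smooth muscle genes stood at 69.8 against 219.5 CPM in the same cells, −1.65 [−2.60, −0.83], and the stroma genes at 75.1 against 142.7 CPM, −0.93 [−1.86, −0.09]. These are cells of 1 sample, and the part of these genes and of depth in the differences was not tested.

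At pnd14, 17 cells with 5 or more counts of Ovgp1, the oviductal glycoprotein gene, stood against the other cells, with medians of 1770 and 1792 counts. All 66 genes together stood at 3647 against 4779 CPM, −0.39 [−0.66, −0.13]. Of 18 measured genes none was higher, beside 14.4% of all genes, and Wnt11, Csnk1g1 and Ctnnbip1 were lower, beside 20.1%, each with an interval that holds 0. Axin1, with no count against 39, was not called at a bound of −0.49, but its interval ends at −0.12, below 0. Wnt16, below the count minimum for a call, had 6 counts against 7, with 2.99 [1.14, 4.78]. The smooth muscle genes stood at 1187 against 2986 CPM in the same cells and the stroma genes at 318.4 against 857.6 CPM, and their part in these differences was not tested.

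Outside the named families, other genes of the pathway were counted by lists of known function. These lists were chosen with earlier results of these data known, so their shares are a description only. At pnd7 over pnd0, where 4.94% of all genes were higher and 7.61% lower, 1 of 7 measured genes for other Wnt receptors and planar polarity was higher and none lower. Of 10 measured partners of beta-catenin in transcription none was higher and 1 lower, and of 7 other signal transduction genes none was higher and 1 lower. Of 9 measured genes known as Wnt targets, 3 were higher and 1 lower, with a median of 0.01 beside −0.03 for all genes. Of the 3 higher targets, 2 have an interval free of 0. At pnd14 over pnd7, where 10.7% of all genes were higher and 14.3% lower, none of 7 receptor and polarity genes, 9 transcription partners and 7 signal transduction genes was called. Of 8 measured targets, 1 was higher and 5 lower, with a median of −1.65 beside −0.10 for all genes. Of the 5 lower targets, 4 have an interval free of 0.

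At pnd28 over pnd14, where 11.9% of all genes were higher and 23.2% lower, 4 of 9 transcription partners were lower and none higher, 2 of the 4 with an interval free of 0. Lower too was 1 of 5 receptor and polarity genes, with an interval that holds 0. None of 5 signal transduction genes was called, and of 4 measured targets 2 were higher and 1 lower. At pnd56 over pnd28, where 14.8% of all genes were higher and 16.5% lower, few genes were measured. Of 4 signal transduction genes 1 was higher and 1 lower, and of 2 transcription partners 1 was higher. Of 3 targets 2 were lower, 1 of them with an interval free of 0. At pnd56 over pnd0, where 10.3% of all genes were higher and 27.4% lower, 1 of 9 transcription partners was higher and 3 lower, 1 of 5 receptor and polarity genes and 1 of 5 targets were lower, and 2 of 6 signal transduction genes were lower. Of the 3 lower partners 2 have an interval free of 0, and the 2 signal transduction genes have intervals that hold 0. Of other modulators outside the cell, 1 gene was measured in a pair, and it was called at pnd28 over pnd14 alone, as lower.

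At least 4-fold lower at pnd14 than at pnd7 with an interval free of 0 were Myc, a growth regulator, with −2.92 [−5.25, −1.28] from 3 and 47 counts, and Fgf9, a growth factor, with −3.90 [−9.25, −1.32] from 1 and 31. The nuclear receptor gene Ppard had −2.27 [−5.41, −0.23] from 2 and 20 counts. Fosl1, an AP-1 factor, had 0 counts at pnd14 against 39 at pnd7, then 31 at pnd28. At the floor of 3 counts the pnd14 level was 6.28-fold lower than at pnd7, and the pnd28 level was 38.01-fold above it. Myc was also higher at pnd7 than at pnd0, with 2.42 [1.26, 3.81]. These genes answer to other pathways too, and their ratios were not put through the alternatives used for the set.

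At pnd28 over pnd14, Id2, an inhibitor of bHLH factors, had −2.41 [−5.50, −0.46], the co-activator gene Bcl9l had −2.09 [−4.42, −0.46] and the glypican gene Gpc6 had −2.71 [−8.07, −0.09] from 1 count. At pnd56 over pnd28, Bcl9l had 2.74 [0.95, 5.15] and Fosl1 −2.72 [−4.68, −1.22]. These ratios use the same pnd28 counts as the ratios of pnd28 to pnd14 and are not separate from them. At pnd56 over pnd0 the co-repressor gene Ctbp2 had −2.30 [−4.60, −0.71] from 3 counts at pnd56.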

How the data were processed

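CEL-seq libraries of single CD326+ uterine cells were made at 5 ages, per the labels' protocols. The authors deposited 1 table of whole-number counts for 12479 genes in 714 of 960 sorted cells. The submitters' processing notes name TopHat, Cuffnorm and mm9, with no role or order stated. The counts were taken as raw. The use of molecular identifiers or of strand was not given in the sources used here.

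Counts were summed per age and scaled to CPM with Python 3.11.15, pandas 2.3.3, numpy 2.4.6 and scipy 1.17.1. Intervals were exact Poisson, conditional binomial and Clopper-Pearson. Only the conditional binomial interval was tried on simulated data. These were Poisson draws of age sums, so counts that clump in single cells were not covered. A call needed 20 counts over both ages and a 2-fold ratio.

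The genes and lists were chosen with earlier results of these data known. Genes with 100 or more counts were described at each age. Those with fewer were named where called with an interval free of 0, and other pathway genes where at least 4-fold different with such an interval. Alternatives were a minimum of 100 counts, median-of-ratios scaling, thinning to 1500 counts, and leaving out marker-bearing cells, the cell of the largest count or each run. Doublets were not searched for. GENCODE M21 and RefSeq GRCm38.p6 gave names, neighbours and promoter windows only.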

Additional observations from a re-analysis of the deposited data

How the results depend on the processing

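No paired analysis was possible because each age is 1 sample and no label pairs cells across ages. Over 32 ratios of called genes of the set and their alternatives, the value moved beyond the counting interval of the ratio 19 times with its sign kept and changed sign 4 times. An alternative was left out of these tallies where an age had no count and its floor lay above the level of the other age. This was so for Wnt6 at pnd56 over pnd0 at 1500 counts. The sign changed for Axin2 at pnd14 over pnd7 (0.24 at 850 counts) and, at 1500 counts, Tle3 at pnd28 over pnd14 (−0.22) and Wnt4 at pnd56 over pnd28 (−0.60) and over pnd0 (−1.37). In 32 combinations a called gene fell below 2-fold. The genes named from the other pathway lists, such as Myc and Fosl1, were not put through these alternatives. With a minimum of 100 counts, the numbers of genes higher and lower were 1 and 0 at pnd7 over pnd0, 1 and 2 at pnd14 over pnd7, 0 and 0 at pnd28 over pnd14 and at pnd56 over pnd28, and 0 and 1 at pnd56 over pnd0, since fewer genes are measured. Thinning to 1500 counts left 0 higher at pnd56 over pnd28 and over pnd0. Thinning to 850 counts, chosen after seeing the data, left 1 lower at pnd7 over pnd0, 1 higher at pnd14 over pnd7, 0 and 0 at pnd56 over pnd28, and 1 higher and 6 lower at pnd56 over pnd0. Without marker-bearing cells, 0 were higher and 3 lower at pnd56 over pnd28. Leaving out each run gave 1 to 5 higher and 2 to 5 lower at pnd7 over pnd0, 3 to 4 higher and 5 to 8 lower at pnd14 over pnd7, 1 to 3 higher and 3 to 4 lower at pnd28 over pnd14, and 0 to 1 higher and 9 to 10 lower at pnd56 over pnd0. Beyond fewer cells or genes, the cause was not tested. Median-of-ratios scaling shifted the median of all genes by 0.10 at pnd14 over pnd7 and 0.19 at pnd56 over pnd0. At pnd28 and pnd56 a gene below 31.2 and 36.6 CPM can show no count, so a gene without counts there may still be expressed. The part of depth in the lower levels at these ages was not tested beyond the thinning.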
